A study of Mus musculus with 12 samples.

Results

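Transcripts of the Wnt pathway's extracellular tier were followed in orthotopic pancreatic tumours: the Wnt ligands, the Frizzled receptors, the co-receptors Lrp5 and Lrp6, and the secreted antagonists of the Sfrp and Dkk families with Wif1. Members were taken by gene symbol from the array design, which gave 55 probes for 40 genes among the 37008 genes of the array. In 1 group, 6 tumours, the mice received FAKi, a focal adhesion kinase inhibitor, at 50 mg/kg by oral gavage over 14 days, and in the other group, also 6 tumours, they received vehicle for as long. All were female C57BL/6 mice of 8 weeks with orthotopic tumours that the labels call KP, a name they do not spell out. Total RNA of tumour tissue was labelled with Cy5 and hybridised to Agilent one-colour arrays, 1 tumour per array. Tumours are numbered in the labels, which leave unsaid whether each came from its own animal, so p-values measure only the spread between these samples.

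Wnts are secreted proteins that the acyltransferase Porcn modifies with lipid and the carrier Wls takes to the cell surface. They bind the cysteine-rich domain of a Frizzled receptor. With Lrp5 or Lrp6 as partner this stabilises beta-catenin, which acts on target genes with factors of the TCF/LEF family, and other receptors such as Ror2 and Ryk pass signals that do not need beta-catenin. Sfrps carry a Frizzled-like domain and bind Wnts outside the cell, Dkk1, Dkk2 and Dkk4 bind Lrp5 and Lrp6, and Wif1 binds Wnts. In pancreatic tumours both the cancer cells and the stroma can make Wnts and their antagonists. Focal adhesion kinase is a cytoplasmic tyrosine kinase that relays signals from integrins.

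Probe sequences are shown first for 3 genes whose probes gave opposite signs in the comparison below. Each array probe has 60 bases, written 5′ to 3′ on the transcript strand, with positions from the array's design on mm9. The Wnt5a probe lies at chr14:29331746-29335708 (+) and crosses an intron. Its capitals mark the codons of Cys-Lys-Cys-His, which stand shortly before the serine that carries the lipid in Wnt proteins. The Fzd5 probe lies at chr1:64781972-64782030 (-). The Dkk3 probe lies at chr7:119265170-119294157 (-), across introns, and was designed on a predicted transcript.
Wnt5a: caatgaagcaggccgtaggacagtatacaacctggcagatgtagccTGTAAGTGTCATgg
Fzd5: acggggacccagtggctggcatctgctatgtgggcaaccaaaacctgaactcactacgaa
Dkk3: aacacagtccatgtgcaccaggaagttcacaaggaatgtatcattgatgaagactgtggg

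Upstream sequences are shown for the receptor pair Fzd1 and Fzd7, whose levels moved together across tumours, and for the ligands Wnt2 and Wnt9a, whose levels split the FAKi tumours. Each is the 250 bases before the gene's start on its own strand, from RefSeq on GRCm38.p6. The windows lie at chr5:4758217-4758466 (-) for Fzd1, chr1:59481897-59482146 (+) for Fzd7, chr6:18030446-18030695 (-) for Wnt2 and chr11:59306680-59306929 (+) for Wnt9a. Capitals mark the letters CTTTGA of the TCF/LEF motif, searched on both strands and found here as the reverse complement.
Fzd1: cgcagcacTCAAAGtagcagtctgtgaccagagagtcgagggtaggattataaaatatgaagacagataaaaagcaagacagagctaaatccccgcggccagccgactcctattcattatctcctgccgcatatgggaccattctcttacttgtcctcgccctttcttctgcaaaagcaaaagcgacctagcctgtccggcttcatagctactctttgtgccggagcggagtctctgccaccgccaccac
Fzd7: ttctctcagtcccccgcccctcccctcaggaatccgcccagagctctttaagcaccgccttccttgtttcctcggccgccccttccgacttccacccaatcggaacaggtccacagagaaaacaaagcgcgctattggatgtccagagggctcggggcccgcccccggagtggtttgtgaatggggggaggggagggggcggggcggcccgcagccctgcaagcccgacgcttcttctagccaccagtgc
Wnt2: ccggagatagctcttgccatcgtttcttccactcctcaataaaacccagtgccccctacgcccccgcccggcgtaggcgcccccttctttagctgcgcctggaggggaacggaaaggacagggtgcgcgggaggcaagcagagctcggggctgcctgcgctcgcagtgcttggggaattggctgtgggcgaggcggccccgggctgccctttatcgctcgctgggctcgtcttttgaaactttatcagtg
Wnt9a: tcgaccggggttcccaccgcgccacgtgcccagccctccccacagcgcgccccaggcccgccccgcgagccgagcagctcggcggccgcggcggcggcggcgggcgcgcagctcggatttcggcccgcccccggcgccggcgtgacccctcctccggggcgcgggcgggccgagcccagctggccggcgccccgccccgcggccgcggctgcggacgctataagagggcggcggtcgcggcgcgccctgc
Of these 4 windows the Fzd1 window held the letters, and 13.8% of all 32851 promoter windows of the same length did. Among members, 26 genes had an entry, with 29 windows, and 4 windows held the letters: those of Fzd1 and Dkk1, 1 of the 3 for Wnt5b and 1 of the 2 for Wnt11. A match is a run of letters and was not tested as a binding site.

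Levels are log2 processed signal minus the 75th percentile of the same array, so 0 stands for a probe at that percentile, and each difference is FAKi minus vehicle on that scale. A gene counted as measured if 6 or more of the 12 arrays had a probe of it well above background, and its brightest probe then stood for it. By this filter 30 of the 40 members were measured, 23 of them above background on all 12 arrays. The measured members were 12 of 19 Wnt ligands, 10 of 10 Frizzleds, both co-receptors, 4 of 4 Sfrps, and Dkk2 and Dkk3 among the 5 Dkks and Wif1. The other 10 had only a bound: Wnt2b, Wnt3a, Wnt6, Wnt8a, Dkk1 and Dkk4 were well above background on 0 arrays. Wnt3 was above it on 1 vehicle array, Wnt8b on 2 FAKi and 2 vehicle arrays, Wnt16 on 2 FAKi and 3 vehicle arrays, and Wif1 on 2 FAKi arrays and 1 vehicle array. Where they passed, Wif1, the antagonist that binds Wnts, read -0.28 in FAKi 1, -4.56 in FAKi 3 and -3.30 in vehicle 1, and Wnt3 read -2.35 in vehicle 4, on the log2 scale defined above. Wnt9a passed on 2 FAKi and 5 vehicle arrays and Wnt10b on 1 FAKi and 5 vehicle arrays, so both passed mainly through vehicle and their differences are partly given by the filter.

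The labelled tissue was checked against marker lists. All 12 epithelial markers (such as Krt19 and Epcam), all 12 fibroblast markers, all 9 leukocyte markers and all 8 endothelial markers were measured, as were 6 of 8 acinar markers. The arrays lay on 5 slides. Slide 1 held FAKi 5 with vehicle 3 and 5, slide 4 held FAKi 1 with vehicle 2 and 6, slide 3 held FAKi 2, 3 and 4, slide 5 held FAKi 6, and slide 2 held vehicle 1 and 4. Only slides 1 and 4 therefore allow a comparison within a slide. Vehicle 6 had the lowest 75th percentile of log2 signal, 11.84, against 12.84 to 13.43 on FAKi arrays and up to 13.90 on vehicle arrays.

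Between FAKi and vehicle tumours, 0 of the 30 measured members passed limma's test at an adjusted p of 0.05 (lowest 0.745, for Fzd6), as did 0 of all 27354 genes (0%). At an unadjusted p under 0.05, 4 members were lower in FAKi (Fzd6, Fzd7, Wnt2 and Wnt9a), where 2.05% of all genes were, and 0 members were higher, where 2.74% of all genes were. With slide as a fixed block 2 members were under 0.05, Fzd6 at -2.04 and Wnt7b at -1.51, and Wnt2, Wnt9a and Fzd7 were not. The Wnt7b value comes from its brightest probe, at 4.60 in vehicle 5 and 4.88 in vehicle 6. Its second probe read 2.16 and 1.98 there and was not fitted with the slide block. No member had groups that did not overlap, a pattern that 0.239% of all genes showed. The members' median log2 difference was -0.18, with 21 of 30 below 0, while the median over all genes was 0.09 with 39.2% below 0. Among the 23 members above background on all 12 arrays the median was also -0.18, with 16 below 0. Of these 23, which leave out Wnt9a, 3 were lower at an unadjusted limma p under 0.05. In whole tissue, fewer cells of a type and less RNA per cell cannot be told apart.

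**Figure D1:**
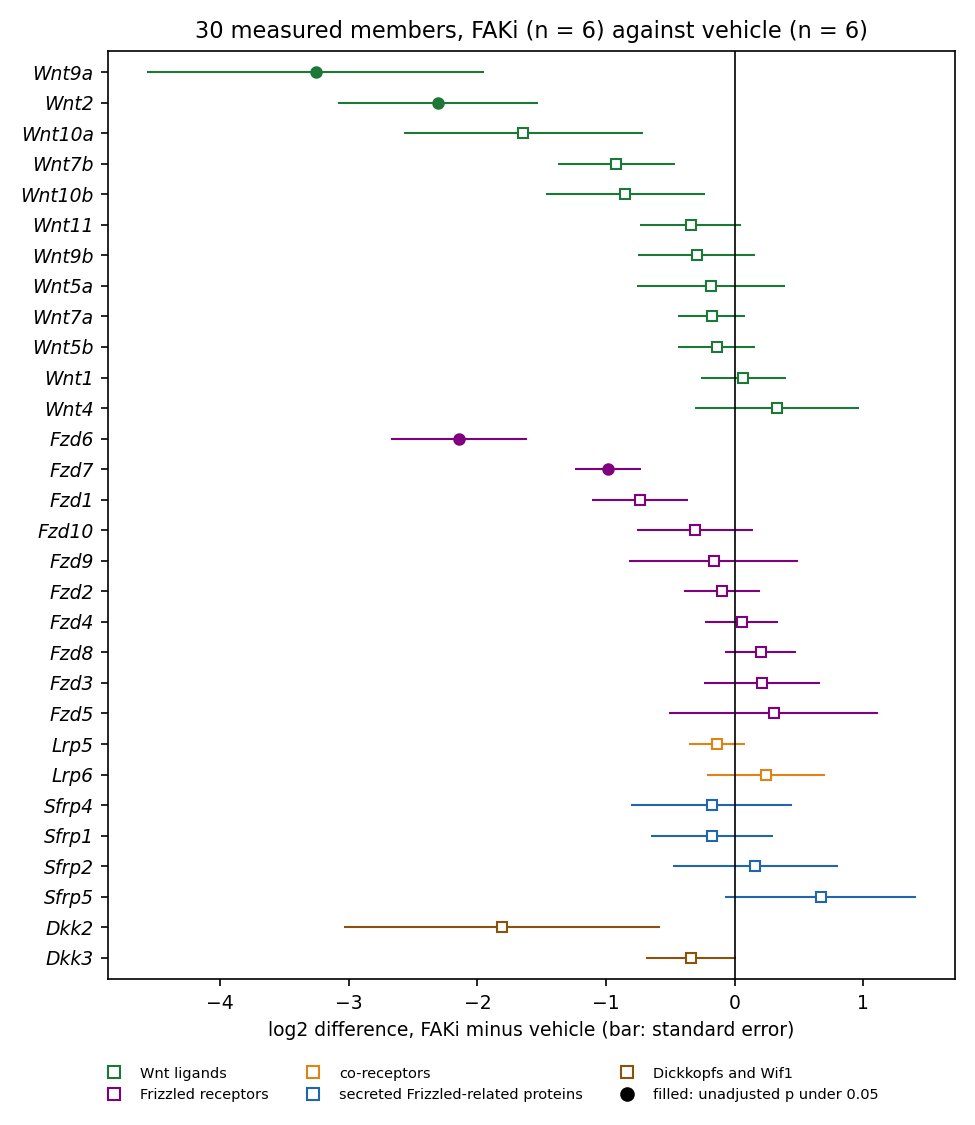
Log2 difference between FAKi and vehicle tumours (x axis, FAKi minus vehicle, bars the standard error, n = 6 each) for the 30 measured members, grouped by role. Filled circles mark Wnt2, Wnt9a, Fzd6 and Fzd7, which had an unadjusted p under 0.05; 21 of the 30 points lie below 0 and none passed the adjusted threshold.

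Among the Wnt ligands, 10 of 12 measured genes had a lower mean in FAKi tumours, with a median log2 difference of -0.32. Over all genes 39.2% were lower and the median was 0.09. The 10 include Wnt9a and Wnt10b, whose lower FAKi values are partly given by the filter. Wnt2, a ligand that activates the beta-catenin branch, is read by a probe at chr6:17939284-17939343. Its level was -6.26 at the lowest, -5.0 at the median and -0.63 at the highest in FAKi tumours, against -2.74, -1.54 and -1.28 in vehicle tumours. FAKi 2, 4, 5 and 6 lay below every vehicle tumour, while FAKi 1 and FAKi 3 lay within or above the vehicle range. The mean was 4.95-fold lower in FAKi tumours (log2 difference -2.31, SE 0.78, limma adjusted p = 0.943), and 5 of 6 FAKi tumours lay below the vehicle mean. Within slide 1 the difference was -3.47, and within slide 4, which holds FAKi 1, it was 1.46. With slide as a fixed block the difference was -1.01, and with normexp background correction -1.31. Without FAKi 1 it was -2.99 (limma adjusted p = 0.118).

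Wnt9a, another ligand and one known for its part in joint formation, has its probe at chr11:59146953-59147012 and split the FAKi tumours in the same way. Its level was -8.70, -8.19 and -2.03 (lowest, median, highest) in FAKi tumours, against -7.20, -2.82 and -0.55 in vehicle tumours. The probe was well above background in FAKi 1 and FAKi 3 and not in the other 4 FAKi tumours, and vehicle 6 was the vehicle tumour in which it was not. On average Wnt9a differed by -3.26 (SE 1.31, limma adjusted p = 0.9995), a size that rests on values not well above background in these 5 tumours, and normexp background correction gave -1.15. The within-slide differences, -6.55 on slide 1 and 3.05 on slide 4, rest on FAKi 5 and vehicle 6, both not well above background. Its unadjusted p was no longer under 0.05 when vehicle 5 or any of FAKi 2, 4, 5 and 6 was left out.

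Skeletal muscle, smooth muscle and endothelial scores were higher in FAKi 1 and FAKi 3 than in the other 4 FAKi tumours. FAKi 1 and FAKi 3 had skeletal muscle scores of 1.64 and 4.83, against -2.01 to -1.55 in the other 4 FAKi tumours and -2.50 to 2.43 in vehicle tumours. A score is the mean over a list of each gene's log2 level minus its mean over the 12 tumours, and this list (Acta1, Ckm, Myh4, Mb and Tnnt3) was measured in full. Its summed level, on the linear scale in units of the array's 75th percentile, ranged from 1.55 to 143 in FAKi tumours and from 1.06 to 22.0 in vehicle tumours. The smooth muscle score, over 6 of 6 markers, was 0.42 and 1.40 in FAKi 1 and FAKi 3, -0.64 to -0.23 in the other 4 FAKi tumours and -0.43 to 0.37 in vehicle tumours. Its summed level was 68.6 to 133 in FAKi and 44.5 to 189 in vehicle tumours. The adipocyte score, over 5 of 5 markers, did not divide the FAKi tumours in this way. It was -0.08 and 1.1 in FAKi 1 and FAKi 3, and -1.88 to 0.33 in the other 4 FAKi tumours. Over the groups it spanned -1.88 to 1.1 in FAKi and -1.73 to 2.54 in vehicle tumours. Its summed levels were 4.19 to 12.8 in FAKi and 3.53 to 30.6 in vehicle tumours. The endothelial score, over 8 of 8 markers, was 0.42 and 0.15 in FAKi 1 and FAKi 3, and -0.99 to -0.03 in the other 4 FAKi tumours. Over the groups it spanned -0.99 to 0.42 in FAKi and -0.77 to 0.96 in vehicle tumours, with summed levels of 4.64 to 11.3 in FAKi and 4.64 to 16.8 in vehicle tumours. The acinar score covered 6 of 8 markers, with Ptf1a and Bhlha15 not well above background. It was lower in FAKi 1 and FAKi 3, at -0.20 and 0.18, than in the other 4 FAKi tumours, at 0.19 to 0.57. Over the groups it spanned -0.20 to 0.57 in FAKi and -0.66 to 0.35 in vehicle tumours. Its summed levels were 2.90 to 8.47 in FAKi and 1.43 to 6.61 in vehicle tumours. The islet score, over 4 of 6 markers, was also lower in FAKi 1 and FAKi 3, at -0.54 and -0.38. In the other 4 FAKi tumours it was -0.33 to 0.37, and in vehicle tumours -0.75 to 1.84. Its summed levels were 0.91 to 2.87 in FAKi and 1.03 to 7.05 in vehicle tumours. Vehicle 6 had the highest vehicle scores for skeletal and smooth muscle, 2.43 and 0.37, with the lowest vehicle Wnt2 and Wnt9a, -2.74 and -7.20. That Wnt9a value was not well above background, and the array of vehicle 6 had the lowest 75th percentile. Vehicle 2, next in skeletal muscle at 2.01, had Wnt2 at -1.44, and vehicle 3, lowest at -2.50, had -1.36. Vehicle 1, 5 and 4, with skeletal muscle scores of 0.89, -0.09 and -1.90, had Wnt2 at -2.06, -1.64 and -1.28. The part of these tissues in the values of Wnt2 and Wnt9a, and of Fzd6 and Dkk2 below, was not tested.

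Wnt7b, a ligand made by epithelia, was the third ligand by p. It had levels of 1.72, 2.76 and 2.90 (lowest, median, highest) in FAKi tumours, against 2.24, 3.13 and 4.88 in vehicle tumours. On this brightest probe all 6 FAKi tumours lay below the vehicle mean, vehicle 5 and vehicle 6 were the highest, and the groups overlapped. It differed by -0.92 (SE 0.45, limma adjusted p = 0.9995), and by -1.81 within slide 1 and -1.22 within slide 4. A second, dimmer probe, well above background on all 12 arrays, gave -0.59 and a different order of tumours. On it vehicle 5 read 2.16 and vehicle 6, the lowest vehicle tumour, 1.98. FAKi 1 and FAKi 3, at 2.34 and 2.40, lay above its vehicle mean of 2.32.

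**Figure D2:**
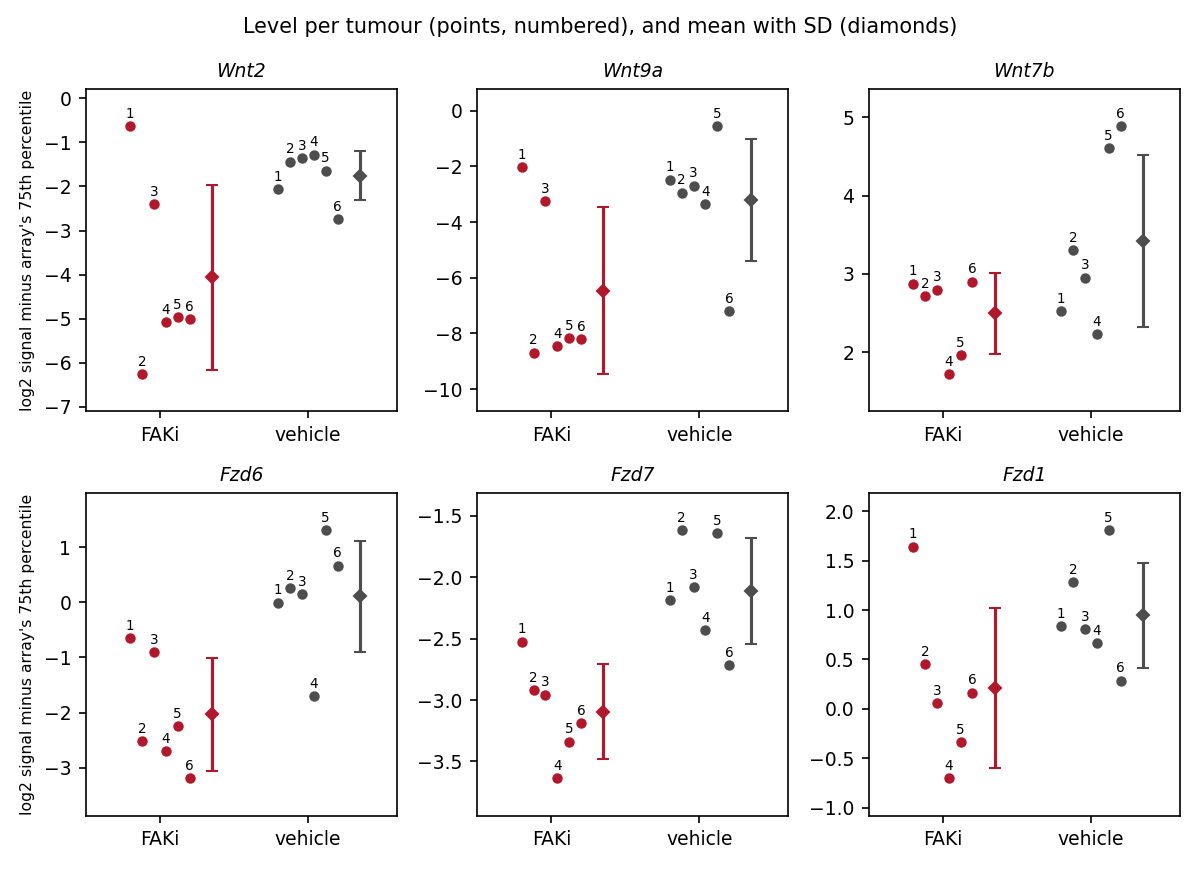
Level of 6 members in each tumour (points, numbered by replicate, FAKi left of vehicle; y axis, log2 signal minus the array's 75th percentile) with group mean and SD (diamonds, n = 6 each). Wnt2 and Wnt9a are low in FAKi 2, 4, 5 and 6 but not in FAKi 1 and 3, and Fzd6 is also higher in FAKi 1 and 3 than in the other 4 FAKi tumours. On the brightest probes, shown here, all 6 FAKi values of Fzd6, Fzd7 and Wnt7b lie below the vehicle mean.

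The other ligands had larger p-values. Wnt10a had a wide spread, from -3.72 to 0.96 in FAKi and from -2.11 to 2.75 in vehicle tumours, and a log2 difference of -1.64 (SE 0.93). Wnt10b, Wnt11, Wnt9b, Wnt7a and Wnt5b lay between -0.85 and -0.14, and Wnt1 and Wnt4 had differences of 0.07 and 0.33. Wnt11, which acts mainly apart from beta-catenin, had 4 FAKi tumours below every vehicle tumour on its brightest probe. That probe's mean difference was -0.34, and FAKi 1 had the highest level of all 12 tumours, 0.20. A second Wnt11 probe gave -0.31. On it only FAKi 2 and FAKi 5, at -3.71 and -3.93, lay below every vehicle tumour, and vehicle 6 was highest, at -1.87. Wnt5a, the best known ligand of the branch without beta-catenin, had 3 measured probes with differences of -0.79, -0.18 and 0.30. The last of these belongs to the intron-crossing probe printed above, and none of the 3 had an unadjusted p under 0.05.

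All 10 Frizzled receptors were measured, and 6 had a lower mean in FAKi tumours, with a median log2 difference of -0.13. Fzd6, a receptor known from planar cell polarity and hair patterning, had the smallest p of all members. Its probe lies at chr15:38869107-38869166. Levels were -3.20, -2.38 and -0.65 (lowest, median, highest) in FAKi tumours, against -1.71, 0.20 and 1.31 in vehicle tumours. FAKi 1 and FAKi 3 had -0.65 and -0.90 and the other 4 FAKi tumours -3.20 to -2.25, the division seen for Wnt2 and Wnt9a. All 6 lay below the vehicle mean and those 4 below every vehicle tumour, with vehicle 4 alone inside the FAKi range. The mean was 4.42-fold lower in FAKi tumours (log2 difference -2.14, SE 0.53, limma adjusted p = 0.745). On slide 1 alone the difference was -2.97, on slide 4 alone -1.11, and a fixed block for slide gave -2.04.

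Fzd7, a receptor of the beta-catenin branch found in gut stem cells, was read by a probe at chr1:59543192-59543251. Levels were -3.64, -3.07 and -2.52 (lowest, median, highest) in FAKi tumours, against -2.72, -2.14 and -1.62 in vehicle tumours. The groups came close to separating: 5 of 6 FAKi tumours lay below every vehicle tumour, and FAKi 1 overlapped vehicle 6. The mean was 1.97-fold lower in FAKi tumours (log2 difference -0.98, SE 0.26, limma adjusted p = 0.851). Within slides 1 and 4 the difference was -1.48 and -0.36.

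Fzd1, a close relative of Fzd7, had levels of -0.70, 0.11 and 1.64 (lowest, median, highest) in FAKi tumours, against 0.29, 0.82 and 1.81 in vehicle tumours. 4 FAKi tumours lay below every vehicle tumour, and FAKi 1 was the second highest of all 12. It differed by -0.74 (SE 0.37, limma adjusted p = 0.9995), and by -1.65 within slide 1 and 0.86 within slide 4. The remaining 7 Frizzleds had differences between -0.31 (Fzd10) and 0.31 (Fzd5), each with a larger unadjusted p than Fzd1. Fzd2, which was measured on all arrays and is a receptor for Wnt5a, differed by -0.10.

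The co-receptors Lrp5 and Lrp6, single-pass proteins that relay the Wnt signal to the Axin complex, had overlapping levels in both groups. Lrp5 had 2.24, 2.49 and 2.76 (lowest, median, highest) in FAKi tumours, against 2.13, 2.60 and 3.29 in vehicle tumours, with a log2 difference of -0.14 (SE 0.22). The groups overlapped over the whole FAKi range. Lrp6 had -0.81, 0.66 and 0.92 in FAKi tumours, against -1.45, 0.71 and 1.07 in vehicle tumours, and a difference of 0.24 (SE 0.46). The lowest 3 tumours for Lrp6 were FAKi 6, vehicle 6 and vehicle 5, and its sign turned without vehicle 6. A second probe of Lrp5, designed on a clone sequence, gave 0.98 (SE 0.99), a value that rests on readings not well above background in vehicle 5 and vehicle 6, at -8.35 and -5.50.

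The 4 Sfrps, which bind Wnts through their own Frizzled-like domain, had a median log2 difference of -0.01. Sfrp5 had levels of -5.05, -3.94 and -1.23 (lowest, median, highest) in FAKi tumours, against -6.97, -3.92 and -2.33 in vehicle tumours, with a difference of 0.67 (SE 0.74). Its probe was well above background on 5 of 6 vehicle arrays, and the value of -6.97 was that of vehicle 5. Sfrp1 had -1.43, -0.38 and 0.78 in FAKi tumours, against -1.69, 0.42 and 0.65 in vehicle tumours, with a difference of -0.18 (SE 0.48). In both genes the groups overlapped almost entirely. Sfrp4 ranged from -2.64 to 1.23 in FAKi and from -2.21 to 0.22 in vehicle tumours, with a difference of -0.18 (SE 0.62). Sfrp2 ranged from -0.05 to 3.67 in FAKi and from -0.29 to 2.61 in vehicle tumours, with a difference of 0.16 (SE 0.64). The sign turned for Sfrp1 without FAKi 6, and for Sfrp4 without vehicle 3, FAKi 4 or FAKi 6.

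Of the Dkks, Dkk2, an antagonist that binds Lrp5 and Lrp6, varied most. Its level was -7.45, -4.15 and -0.12 (lowest, median, highest) in FAKi tumours, against -3.39, -2.68 and 0.82 in vehicle tumours. FAKi 2, 4, 5 and 6 lay below every vehicle tumour and FAKi 1 and FAKi 3 near the top of the vehicle range, the split that Wnt2 and Wnt9a showed. Dkk2 differed by -1.81 (SE 1.23, limma adjusted p = 0.9995), by -6.68 within slide 1 and by 2.96 within slide 4. FAKi 5, the FAKi tumour of slide 1, and FAKi 6 were not well above background. Dkk3, a divergent member of the family, ranged from -0.38 to 0.86 in FAKi and from -0.32 to 1.71 in vehicle tumours on its brightest probe. That probe gave -0.34 (SE 0.35), the second 0.07 and the intron-crossing probe printed above 0.48.

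Probes disagreed beyond these cases. Of the 10 members with more than 1 measured probe, 6 had probes of opposite sign: Wnt5a, Wnt5b, Fzd4, Fzd5, Lrp5 and Dkk3. For Fzd5 the brightest probe gave 0.31 (SE 0.82) and the probe printed above -0.09 (SE 0.29), and these probes were not tested against each other. In Wnt7a, Wnt7b, Wnt11 and Lrp6 the probes had the same sign. Wnt2, Wnt9a, Fzd6 and Fzd7 each rest on 1 probe, so this check could not be made for them.

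**Figure D3:**
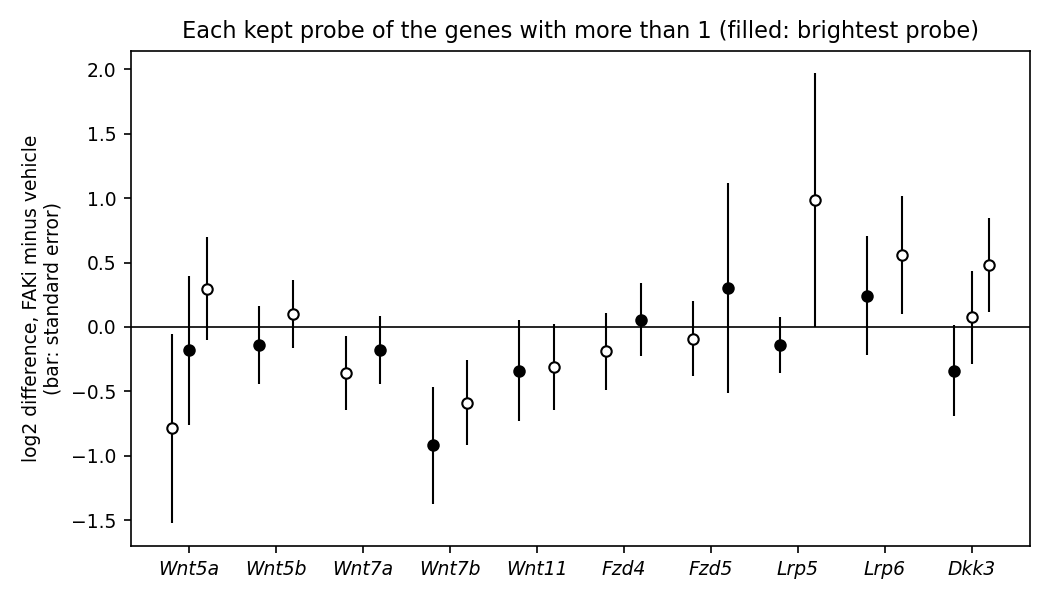
Log2 difference between FAKi and vehicle tumours (y axis, FAKi minus vehicle, bars the standard error, n = 6 each) for every measured probe of the 10 members with more than 1. Filled points are the brightest probe of each gene, and in 6 genes the points lie on both sides of 0.

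Other genes of the pathway were read from 3 lists, with 0 genes passing the adjusted threshold in each. Of the list for secretion, surface receptors and further antagonists, 15 of 20 genes were measured (Ror1 and Rspo1 to Rspo4 were not), 8 of them lower in FAKi with a median of -0.27. Lgr6, a receptor for R-spondins, had -3.65, -1.90 and -0.80 (lowest, median, highest) in FAKi tumours, against -1.60, -0.67 and 0.24 in vehicle tumours, with a log2 difference of -1.22 (SE 0.51, limma adjusted p = 0.9995). Ptk7, a Wnt co-receptor of the planar polarity branch, had a difference of 0.40 (SE 0.19), with all 6 FAKi tumours above the vehicle mean. Wls, the Wnt carrier, had 1.09, 1.22 and 3.34 in FAKi tumours, against 1.64, 2.72 and 4.39 in vehicle tumours, with a difference of -0.98 (SE 0.54). The acyltransferase Porcn differed by 0.10.

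Inside the cell, all 18 listed components of the signalling chain were measured, 8 were lower in FAKi, and 0 had an unadjusted p under 0.05. Differences lay between -0.42 (Tcf7l1) and 0.42 (Gsk3b). The kinase Csnk1a1 had a log2 difference of 0.25 (SE 0.20), the beta-catenin gene Ctnnb1 -0.27 (SE 0.22) and the beta-catenin cofactor Bcl9 0.38 (SE 0.35).

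Of 18 genes listed as common targets of the beta-catenin branch, 15 were measured and 12 were lower in FAKi, with a median log2 difference of -0.33, where 39.2% of all genes were lower and the median over all genes was 0.09. Axin2, Lef1 and Sp5, which are widely used readouts of that branch, were not measured. At an unadjusted p under 0.05, 3 were lower and 1 was higher, where 2.05% of all genes were lower and 2.74% higher. The higher one was Myc, a growth regulator that many pathways besides Wnt control. It had 3.04, 4.38 and 4.82 (lowest, median, highest) in FAKi tumours, against 2.55, 3.06 and 3.59 in vehicle tumours, with a log2 difference of 1.16 (SE 0.30, limma adjusted p = 0.851). 5 of 6 FAKi tumours lay above the vehicle mean, and the difference was 1.76 within slide 1 and 0.03 within slide 4.

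Nkd1, a feedback inhibitor that binds Dishevelled, had -4.97, -4.57 and -0.81 (lowest, median, highest) in FAKi tumours, against -3.02, -2.40 and -0.65 in vehicle tumours. It differed by -1.74 (SE 0.65, limma adjusted p = 0.9995), with -2.47 within slide 1 and 1.90 within slide 4. Tcf7, a TCF/LEF factor also high in T cells, differed by -0.62 (SE 0.28), and Apcdd1, an inhibitor at the membrane, by -0.88 (SE 0.41). All 6 FAKi tumours lay below the vehicle mean for Apcdd1. The leukocyte score, over 9 of 9 markers, spanned -0.51 to 0.87 in FAKi and -0.68 to 0.62 in vehicle tumours, and its part in the Tcf7 value was not tested. The stem cell receptor Lgr5 differed by -0.89 (SE 0.65) and Ccnd1, a cell cycle gene, by -0.33 (SE 0.23).

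How the members varied with the tissue's make-up was asked by correlating each with a fibroblast score and an epithelial score over 12 tumours, 60 relations in all. After adjustment over the 60, 0 members passed with either score. The scores themselves had r = -0.382 (permutation p = 0.217). The fibroblast score spanned -0.44 to 0.47 in FAKi and -0.90 to 0.68 in vehicle tumours, and the epithelial score -0.46 to 0.11 in FAKi and -1.43 to 1.21 in vehicle tumours, so FAKi tumours covered the narrower range of both.

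Sfrp1 had the highest correlation with the fibroblast score, with r = 0.777 (permutation p = 0.00287, adjusted p = 0.172) and rho = 0.685 (permutation p = 0.0167, adjusted p = 0.426). FAKi 3 had a score of 0.47 with an Sfrp1 level of -0.53. The r was 0.663 without the tumours farthest from the median score, vehicle 5 and vehicle 1, and 0.703 in FAKi and 0.855 in vehicle tumours alone. With slide means removed it was 0.742. Sfrp2, an Sfrp of connective tissue, followed with r = 0.716 (permutation p = 0.00835, adjusted p = 0.173) and rho = 0.692 (permutation p = 0.0147, adjusted p = 0.426). Without the farthest tumours its r was 0.565, and it was 0.616 in FAKi, 0.890 in vehicle and 0.631 with slide means removed. FAKi 1 had an Sfrp2 level below all other FAKi tumours at a middling fibroblast score. Fzd4, an endothelial receptor for norrin, had r = 0.699 (permutation p = 0.0115, adjusted p = 0.173) and rho = 0.531 (permutation p = 0.0801, adjusted p = 0.448). Its r was 0.002 in FAKi and 0.918 in vehicle tumours, 0.638 with slide means removed and 0.260 without the farthest tumours, so it rested on those tumours. The lowest values were r = -0.509 for Fzd5, r = -0.455 for Wnt4 and r = -0.371 for Lrp6, each with an adjusted permutation p of 0.377 or more. Without the farthest tumours these were -0.188, -0.383 and -0.062, in FAKi tumours alone 0.191, -0.241 and 0.668, in vehicle tumours alone -0.802, -0.675 and -0.799, and with slide means removed -0.764, -0.570 and -0.640.

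Wnt4 had the highest correlation with the epithelial score, r = 0.699 (permutation p = 0.0111, adjusted p = 0.173) and rho = 0.559 (permutation p = 0.0611, adjusted p = 0.448). Without vehicle 2 and vehicle 5, the tumours farthest from the median score, its r was 0.298. It was 0.516 in FAKi, 0.973 in vehicle and 0.698 with slide means removed. Fzd5, a receptor of gut epithelium, had r = 0.654 (permutation p = 0.0171, adjusted p = 0.205) and rho = 0.587 (permutation p = 0.0480, adjusted p = 0.448), and r = 0.416 without those tumours. Within groups its r was 0.828 in FAKi and 0.692 in vehicle tumours, and it was 0.687 with slide means removed. Wnt7a had r = 0.600 (permutation p = 0.0401, adjusted p = 0.339) and rho = 0.161 (permutation p = 0.619, adjusted p = 0.851), and its r was -0.271 without those tumours. The lowest were r = -0.579 for Wnt5a, r = -0.521 for Dkk3 and r = -0.508 for Fzd2, and without those tumours they were -0.306, -0.207 and -0.156. The relations of Wnt4, Wnt7a, Wnt5a, Dkk3 and Fzd2 thus rested largely on vehicle 2 and vehicle 5.

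**Figure D4:**
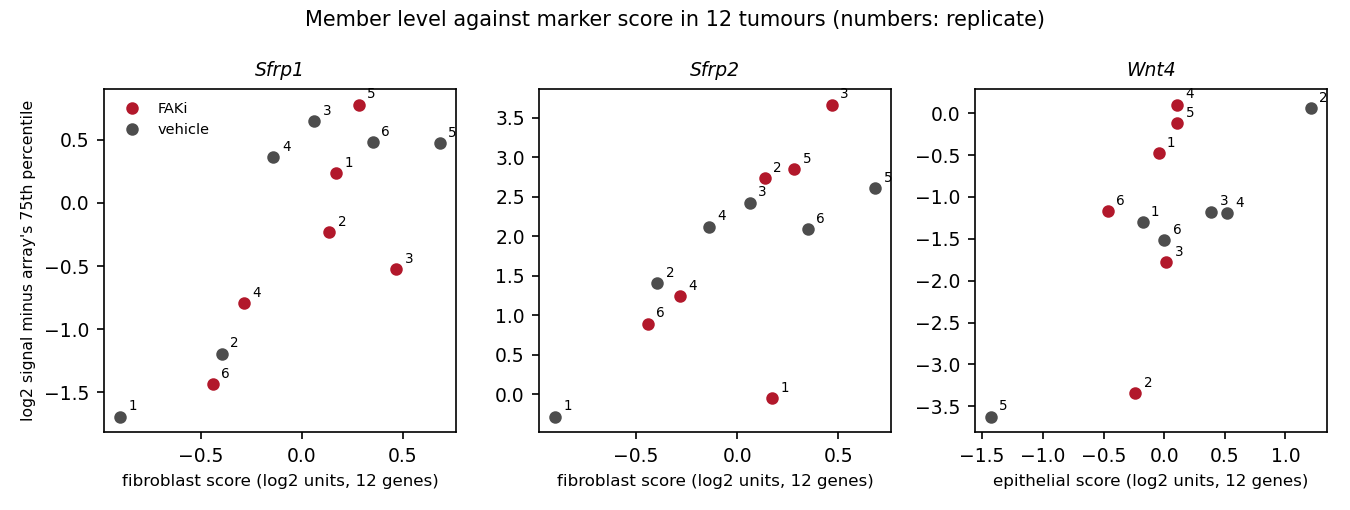
Level of Sfrp1, Sfrp2 and Wnt4 (y axis, log2 signal minus the array's 75th percentile) against the fibroblast or epithelial marker score (x axis, log2 units) in 6 FAKi and 6 vehicle tumours, numbered by replicate. Sfrp1 and Sfrp2 run upward with the fibroblast score with exceptions, FAKi 3 for Sfrp1 and FAKi 1 for Sfrp2, and neither relation passed after adjustment. Vehicle 2 and vehicle 5 stand at the ends of the epithelial score.

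Pairs of members were compared over the same 12 tumours, a step chosen after the data had been seen. Of 435 pairs, 7 had an adjusted permutation p under 0.05 for r, all of them positive, and 3 did for rho, and the median r over all pairs was 0.155. The share among pairs of other genes was not computed, so the count cannot be read as particular to the members. For 3 of the 7, which involve Wnt2 or Wnt9a, the tumours fell into separate clusters, with 4 FAKi tumours apart at low levels and vehicle 6 near them for Wnt9a, so no pooled value is given. Fzd1 and Fzd7 had r = 0.878 (permutation p = 0.00017, adjusted p = 0.0246) and rho = 0.895 (permutation p = 0.00022, adjusted p = 0.0449). Their r was 0.948 in FAKi and 0.930 in vehicle tumours, 0.827 with slide means removed and 0.773 without the farthest tumours. FAKi 1 alone lay off the line, with more Fzd1 for its Fzd7.

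Wnt1, a classical ligand of the beta-catenin branch, had r = 0.856 with Lrp5 (permutation p = 0.00032, adjusted p = 0.0348) and rho = 0.832 (permutation p = 0.00145, adjusted p = 0.0810). With slide means removed the r was 0.957, it was 0.912 in FAKi and 0.905 in vehicle tumours, and 0.731 without the farthest tumours. Wnt1 and Fzd3, a receptor of axon guidance, had r = 0.877 (permutation p = 0.00016, adjusted p = 0.0246) and rho = 0.825 (permutation p = 0.00149, adjusted p = 0.0810). Wnt7b and Fzd10 had r = 0.791 (permutation p = 0.00074, adjusted p = 0.0460) and rho = 0.839 (permutation p = 0.00118, adjusted p = 0.0810). Within groups, these pairs had r between 0.801 and 0.916, and with slide means removed 0.891 for Wnt1 with Fzd3 and 0.717 for Wnt7b with Fzd10. Without the farthest tumours the same values were 0.784 and 0.861. The Wnt7b levels here are those of its brightest probe. Its second probe, which ordered the tumours differently, was not correlated with Fzd10, so the relation is not known to hold on it. Fzd10 was well above background on 4 FAKi and 6 vehicle arrays. Vehicle 6, the array of lowest 75th percentile, was the highest of the 12 tumours in Wnt1 (2.25), Lrp5 (3.29), Fzd3 (-2.96) and Wnt7b (4.88). FAKi 5 and FAKi 6, with the lowest FAKi percentiles (12.84 each), had the highest FAKi levels of Wnt1, 1.46 and 1.79. Without vehicle 6 the r was 0.724 for Wnt1 with Lrp5, 0.821 for Wnt1 with Fzd3, 0.835 for Wnt7b with Fzd10 and 0.879 for Fzd1 with Fzd7. With the linear trend on the array's 75th percentile removed these became 0.493, 0.810, 0.811 and 0.865, so Wnt1 with Lrp5 was the pair that moved most. Quantile normalisation gave 0.780, 0.861, 0.731 and 0.858, and these settings too were chosen after the data had been seen.

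**Figure D5:**
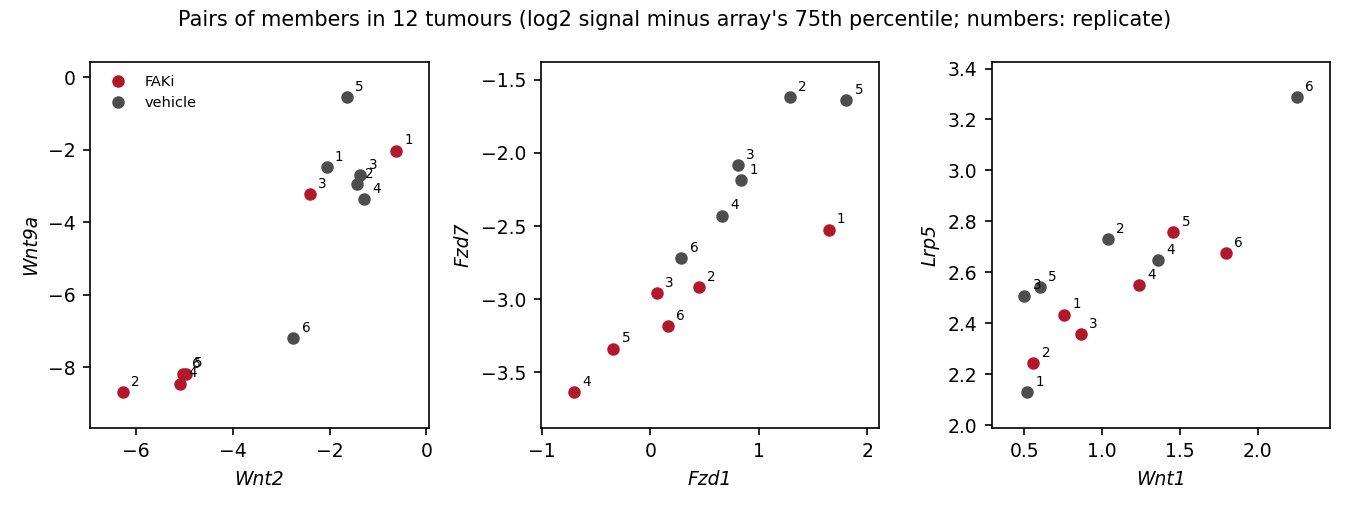
Levels of 3 pairs of members (both axes, log2 signal minus the array's 75th percentile) in 6 FAKi and 6 vehicle tumours, numbered by replicate. FAKi 2, 4, 5 and 6 form a group of their own at low Wnt2 and Wnt9a, Fzd1 and Fzd7 lie along a line with FAKi 1 to its right, and vehicle 6 is highest in both Wnt1 and Lrp5.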

How the data were processed

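Expression was measured on 12 one-colour Agilent arrays, 6 FAKi and 6 vehicle. Per the file headers, the authors made the red-channel intensity values with Agilent Feature Extraction 11.5.1.1, which subtracted background, on a design placed on mm9. The authors also deposited a log2 table of 38569 probes, with no normalisation stated in those sources; its column medians lay between 10.71 and 10.90, so the arrays shared a common scale. The submitters' processing notes name limma without a version.

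Here, spots marked as outliers (71 to 156 per array) were left out, and log2 processed intensity minus each array's 75th percentile was averaged per probe. Between 66.6% and 76.1% of spots were well above background, 0 were saturated, and precision is limited by how many tumours there were. Of 56605 probes 40460 passed the filter, for 27354 genes, each read by its brightest probe. Gene names came from RefSeq accessions for 32994 probes, current symbols for 10224, synonyms for 520 and the array for 12867.

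FAKi was compared with vehicle in limma 3.58.1 (R 4.3.3), with Benjamini-Hochberg adjustment over all genes at 0.05, and the fit was tested on simulated shifts. Correlations used two-sided permutation tests with 100000 resamples in numpy 2.4.6, with ranks from scipy 1.17.1. The alternatives were other normalisations, normexp with an offset of 50, the deposited table, other filters and probe choices, slide or replicate blocks, array weights, a variance trend and leaving out each tumour. Slide and scan order divided the arrays in the same way. Per class, the 3 members of smallest p and any with p under 0.05 are described in full, and per score the 3 highest and 3 lowest correlations; from each other pathway list the 3 genes of smallest p are named, and further genes of it were chosen after their values were seen. The members, the lists and the rules were chosen with earlier results of these data known.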

Additional observations from a re-analysis of the deposited data

Results flagged for a closer look

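Among the FAKi tumours 2 single values stood apart from the rest of their group, by the gap to the nearest other tumour divided by the group's range, set against Dixon's critical value at 95% for 6 samples. Chance flags about 1 in 20 groups, and 30 members were measured, so about this many flags can come from chance alone. Wnt10b was highest in FAKi 3, at -4.12 against -6.48 in the next FAKi tumour, a ratio of 0.795, and FAKi 3 was the 1 FAKi tumour in which its probe was well above background. Lrp6 was lowest in FAKi 6, at -0.81 against 0.57 in the next FAKi tumour, also a ratio of 0.795.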

How the results depend on the processing

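For the measured members, 0 passed the adjusted threshold under every alternative run, and between 3 and 7 had an unadjusted p under 0.05. Under slide as a fixed block the count was instead 2, Fzd6 and, on its brightest probe, Wnt7b. Fzd6 stayed lower in FAKi under all alternatives, between -2.51 and -1.81, and Fzd7 between -1.15 and -0.70. The members' median stayed below 0, from -0.33 to -0.11 when each tumour was left out, and was -0.39 with slide as a fixed block, where the median over all genes was -0.03.

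Over all genes, the 0 calls became 1 with normexp background correction and 3 with array weights, and 0 to 3 when each tumour was left out, with 3 reached without FAKi 1. At an unadjusted p under 0.05 the count of 1311 genes became 3807 without vehicle 6, 872 without FAKi 2, 762 without FAKi 4, 5130 with array weights and 491 with slide as a fixed block. With the replicate number as a block the calls were again 0, and the count at an unadjusted p under 0.05 was 1667. Deviations of same-numbered tumours correlated between -0.117 and 0.485, above 0.1 in 4 of 6 pairs. Differently numbered tumours were not compared in this way, so whether the numbers pair the samples was left undecided. The main fit used no pairing.

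Signs turned in genes with small differences. Averaging the probes of a gene gave 0.42 for Lrp5, whose second probe was not well above background in 2 vehicle tumours, and 0.0719 for Dkk3, and 0.0192 for the correlation of Dkk3 with the epithelial score. Lrp6 was -0.0759 with array weights and -0.0916 to 0.50 with each tumour left out. Sfrp1 was 0.40 with slide as a fixed block, 0.24 with array weights and -0.48 to 0.0452 with each tumour left out, and Sfrp4 was -0.67 to 0.11. The count of members correlated with the fibroblast score was 0 to 1 with each tumour left out: Sfrp2 passed without FAKi 1 (r = 0.896, adjusted permutation p = 0.0144) and Sfrp1 without FAKi 3 (r = 0.864, adjusted permutation p = 0.0180). The cause of these shifts was not tested beyond the tumour or probe that was changed.

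Genes close to background (Wnt9a, Wnt10b, Fzd9, Fzd10 and Dkk2) are limited by signal: normexp correction moved Wnt9a to -1.15. It also moved Wnt2, which was above background on all arrays, to -1.31. The probes that stood for Sfrp5 and Fzd5 were well above background on 5 of 6 vehicle arrays.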
